A study of Mus musculus with 5 samples.

Results

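The destruction complex is the cytoplasmic assembly that keeps the signalling protein beta-catenin scarce. 8 mouse genes that encode its core parts, its substrate and its ubiquitin ligase were followed here: Apc and Apc2, Axin1, Gsk3a and Gsk3b, Csnk1a1, Ctnnb1 and Btrc. They were chosen by symbol, through the transcript accession of each array probe. 17 probes matched them, of 34549 probes that matched 1 gene symbol, and the 8 genes stand among 23779 genes named on the array, of which 17583 were tested.

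APC and AXIN are scaffolds that hold beta-catenin beside the kinases CK1 alpha and GSK3. The kinases phosphorylate beta-catenin in turn, and the phosphorylated form is bound by the F-box protein beta-TrCP, which leads to its ubiquitylation and degradation. A Wnt ligand, or loss of APC function, lets beta-catenin build up and act with TCF and LEF proteins on target genes, and in the stomach this signal is known to sustain stem cells of the glands.

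Gene expression was measured in 5 mouse gastric organoid samples with 1 one-colour Agilent array each. 4 were organoids grown out of subcutaneous tumours and all 4 carried Trp53 loss: 1 with the hairpin shCdh1 #1, 1 with shCdh1 #2, 1 with Apc580D, and 1 with Pik3caH1047R. The control was the pre-inoculation organoid line from Trp53flox/flox mice carrying pLKO.1 and shLuc, for which the labels name no Trp53 loss. The 2 hairpin samples were taken as replicates of 1 group, shCdh1, and the other groups have 1 array each; further tumour-derived organoids mentioned in the design text were not analysed here. All samples are labelled stomach and female, and strain and age are not given in the sources used here. All were grown in the same serum-free medium, which contained EGF, R-spondin1, Noggin, Y27632, Jagged-1 and CHIR-99021. R-spondin1 strengthens Wnt signalling and CHIR-99021 inhibits GSK3, so both act on the pathway described here and were present in every group, the control included. Every comparison with the control combines Trp53 loss, a second lesion, and growth as a tumour, which cannot be told apart, and all of these comparisons share the single control array.

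Levels are log2 signals relative to each array's 75th percentile, so that a level of 0 is that percentile. The arrays had 36661 to 38710 spots well above background out of 59305. The control and both shCdh1 arrays lay on 1 slide, and the Apc and Pik3ca arrays on another. The Apc and Pik3ca tumours thus also differ from the control by slide, which cannot be told apart from their lesions. Cdh1, the target of the hairpins, had levels of 0.07 and 0.26 in the shCdh1 tumours, 4.48 in the Apc tumour and 4.58 in the Pik3ca tumour, against 4.39 in the control. Trp53 lay between −5.86 and −4.86 in the tumours, against 0.85 in the control. Pik3ca had levels of 2.97 and 2.33 in the shCdh1 tumours, 1.45 in the Apc tumour and 2.23 in the Pik3ca tumour, against 3.40 in the control, and Apc is described below. The Pik3ca library goes against its label of female: Xist was not well above background there (level −8.14), whereas the Y-linked genes Uty, Kdm5d, Eif2s3y and Ddx3y gave signal well above background there and on no other array. Its comparisons with the control and with the other tumours may thus also combine a difference in donor or sex, for every gene. These cannot be told apart from its lesion. The tumour differences were therefore recomputed without the Pik3ca library. Of 28 genes other than members, 28 kept their sign and 24 stayed within 1.5 times of the value with it, and the values of the others (Nkd1, Cdh3, Tle4 and Sp5) are given where they are described. All 6 epithelial markers were well above background on every array, as were 7 or 8 of 8 stomach markers. The summed linear level of the 8 stomach markers, in units of the 75th percentile, was 135 and 45.2 in the shCdh1 tumours, 94.7 in the Apc tumour and 52.99 in the Pik3ca tumour, against 207 in the control. Of markers of other cell types, 2 to 4 of 4 tested fibroblast markers, 4 to 6 of 6 leukocyte markers and 2 of 4 tested endothelial markers were well above background on each array; the summed level of the fibroblast markers was 0.0777 and 0.114 in the shCdh1 tumours, 0.228 in the Apc tumour and 0.102 in the Pik3ca tumour, against 0.0684 in the control. The same sum for leukocyte markers was 16.0 and 20.96 in the shCdh1 tumours, 17.2 in the Apc tumour and 19.97 in the Pik3ca tumour, against 11.7 in the control, and for endothelial markers 0.101, 0.109, 0.0822 and 0.0927 in the same tumours, against 0.228 in the control. The endothelial sum of the control came mostly from Emcn, which was well above background there alone, at −2.54. Without Emcn, the sums were 0.0974, 0.105, 0.0790 and 0.0888 in the same tumours, against 0.0551 in the control. Kdr was well above background in shCdh1 #2, Apc and Pik3ca, and not in shCdh1 #1 or the control. The leukocyte sum came mostly from Cd68 and Itgam on every array. Ptprc, another marker of that list, had levels of −4.86 and −4.75 in the shCdh1 tumours and −4.63 in the Apc tumour. It was not well above background in the Pik3ca tumour or the control. Lum, Pdgfrb and Tie1 were not well above background on any array. The part of other cell types in the results below was not tested.

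The 250 bases upstream of the annotated start are shown for 3 members, Gsk3a, Gsk3b and Ctnnb1, whose brightest probes varied little, and for Sp5, a Wnt feedback gene that was highest in the Apc tumour and was picked after its values were seen. They set the letters of the TCF and LEF binding motif before members and before a feedback gene side by side. The sequences are from RefSeq, build GRCm38.p6, on the strand of the gene. Capitals mark the TCF/LEF heptamer CTTTGAA, its variants CTTTGAT, or with other last letters CTTTGTA and further CTTTGTT, as well as the pentamer CCAAT, each searched on both strands, with matches on the other strand capitalised as they read on this one.
Gsk3a, chr7:25237852-25238101, minus strand: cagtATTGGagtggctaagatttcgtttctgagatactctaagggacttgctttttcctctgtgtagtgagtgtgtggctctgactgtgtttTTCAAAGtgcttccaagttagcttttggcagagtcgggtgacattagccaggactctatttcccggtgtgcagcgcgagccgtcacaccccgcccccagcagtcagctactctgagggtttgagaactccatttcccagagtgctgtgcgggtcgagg
Gsk3b, chr16:38088751-38089000, plus strand: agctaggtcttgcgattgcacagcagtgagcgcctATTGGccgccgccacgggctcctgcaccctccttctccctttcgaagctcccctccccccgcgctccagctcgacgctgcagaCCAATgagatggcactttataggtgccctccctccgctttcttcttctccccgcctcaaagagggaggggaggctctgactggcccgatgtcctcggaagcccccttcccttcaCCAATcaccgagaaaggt
Ctnnb1, chr9:120933150-120933399, plus strand: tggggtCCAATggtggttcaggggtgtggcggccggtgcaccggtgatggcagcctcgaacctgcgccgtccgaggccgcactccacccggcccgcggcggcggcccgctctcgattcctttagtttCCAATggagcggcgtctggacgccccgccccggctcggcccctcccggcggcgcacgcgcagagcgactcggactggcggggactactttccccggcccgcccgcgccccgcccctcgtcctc
Sp5, chr2:70474673-70474922, plus strand: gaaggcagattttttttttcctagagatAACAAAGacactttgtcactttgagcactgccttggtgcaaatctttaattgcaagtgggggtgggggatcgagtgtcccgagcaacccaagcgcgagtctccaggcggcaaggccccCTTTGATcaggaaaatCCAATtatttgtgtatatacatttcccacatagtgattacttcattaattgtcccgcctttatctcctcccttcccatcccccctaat
The Gsk3a window holds 1 TCF/LEF heptamer, which begins 158 bases upstream of the start, and 1 CCAAT. The Gsk3b window holds 3 CCAAT and 0 heptamers, and the Ctnnb1 window shown holds 2 CCAAT and 0 heptamers. The Sp5 window holds 2 heptamers, beginning 222 and 104 bases upstream, and 1 CCAAT. Of 32851 windows of this length, 14.8% hold a TCF/LEF heptamer, 1.43% hold at least 2, 33.8% hold CCAAT and 2.79% hold at least 3 CCAAT. The Ctnnb1 window shown is also rich in the dinucleotide CpG, with 35 copies against a median of 6 over all windows. A second annotated start of Ctnnb1 has the overlapping window chr9:120933328-120933577, with 0 CCAAT, 0 heptamers and 43 CpG. 8 windows of 4 member genes (Gsk3a, Gsk3b, Ctnnb1 and Apc2) were read, and 2 of the 8 hold a heptamer. Among 8 windows of 5 feedback genes that were highest in the Apc tumour (Axin2, Nkd1, Sp5, Wif1 and Lef1), 2 hold one. A match is a description of letters and not a binding site.

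On the brightest probe of each gene, the RNAs of the destruction complex differed little between the tumours and the control. The difference between the mean of the 4 tumour arrays and the control lay between −0.29 for Apc and 0.51 for Apc2 on the log2 scale. On these probes 0 of 8 members passed the limma test at an adjusted p of 0.05. Of all 17583 genes tested, 21 passed (0.119%), so that a count of 0 among 8 genes is near that background. At an unadjusted p under 0.05 there were 0 members on these probes, beside 13.3% of all genes. Of all 17 member probes, 2 were under it by limma (A_66_P104190 of Gsk3b and A_66_P102607 of Btrc), beside 3490 of all 25817 probes tested. The median difference over the 8 members was 0.14, beside 0.06 over all genes tested, and the median size of the difference was 0.20 against 0.36. The 95% interval of the difference stayed within 2-fold in either direction for 7 of 8 members, the exception being Apc2. Without the Pik3ca tumour, the differences lay between −0.22 for Apc and 0.50 for Apc2, each with the same sign as before. In bulk samples, fewer cells of a type and less RNA per cell cannot be told apart.

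**Figure D1:**
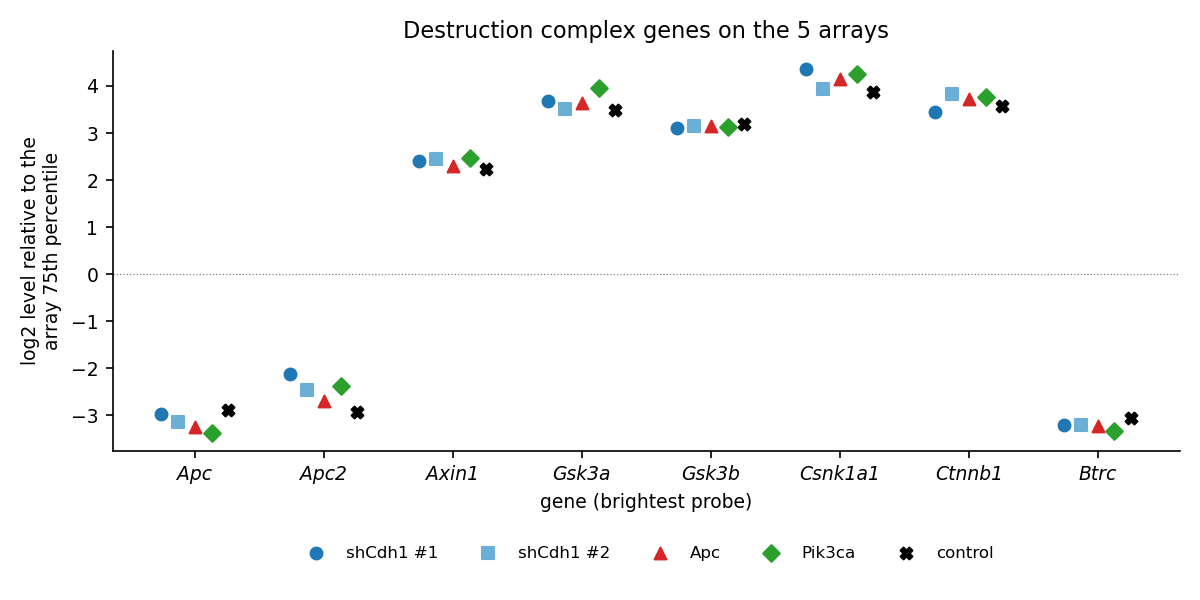
Log2 level relative to the array's 75th percentile (vertical axis) of the brightest probe of each of the 8 genes (horizontal axis), 1 point per array, with the 4 tumour arrays left of the control. Points of 1 gene lie within 0.80 of each other. Levels of different genes come from different probes and are not comparable.

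Among the scaffolds, Apc encodes the large protein that is lost in many intestinal tumours. Its only probe, A_52_P633752, had levels of −2.97 and −3.15 in the shCdh1 tumours, −3.24 in the Apc tumour and −3.36 in the Pik3ca tumour, against −2.89 in the control. The control was highest, by a small margin over shCdh1 #1, and the Apc tumour did not stand lowest. The tumours averaged −3.18 ± 0.17 (SD, n = 4), and the difference from the control was −0.29 ± 0.24 (SE), with an adjusted p of 0.657 by limma. Whether this probe lies in the part of the gene altered by Apc580D was not checked, so it says nothing about the lesion itself.

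Apc2 encodes a relative of APC best known from the nervous system. Its only probe, A_55_P2075627, had levels of −2.13 and −2.47 in the shCdh1 tumours, −2.69 in the Apc tumour and −2.38 in the Pik3ca tumour, against −2.93 in the control. All 4 tumours lay above the control, with the Apc tumour nearest to it. The difference of 0.51 ± 0.28 had the lowest adjusted p among the members, 0.501 by limma.

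Axin1 encodes the scaffold thought to be the scarcest part of the complex. Its brightest probe, A_55_P2761970, had levels of 2.40 and 2.44 in the shCdh1 tumours, 2.29 in the Apc tumour and 2.46 in the Pik3ca tumour, against 2.25 in the control. The 4 tumours lay above the control, but the difference was 0.15 ± 0.20 (limma, adjusted p = 0.783). The other probe of the gene, A_55_P2143209, had levels of 1.05, 1.32, 0.93 and 1.03 in the same tumours, against 0.73 in the control. It too was above the control in 4 of 4 tumours, by 0.35 ± 0.24 (limma, adjusted p = 0.584 over all 25817 probes tested). Of all those probes 28 passed (0.108%), and 0 of the 17 member probes did.

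Of the kinases, Gsk3a and Gsk3b encode the alpha and beta forms of GSK3. The brightest probe of Gsk3a, A_55_P1981405, had levels of 3.68 and 3.51 in the shCdh1 tumours, 3.63 in the Apc tumour and 3.95 in the Pik3ca tumour, against 3.49 in the control. The Pik3ca tumour was highest and shCdh1 #2 was close to the control. The difference was 0.21 ± 0.25 (limma, adjusted p = 0.764), and without the Pik3ca tumour it was 0.12. On the dimmer probe, A_51_P437279, the tumours had levels of −1.78, −2.09, −1.78 and −1.72 in the same order, against −1.91 in the control, so that the groups overlapped.

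Gsk3b was the steadiest member on its brightest probe, A_55_P1981415. Levels were 3.10 and 3.15 in the shCdh1 tumours, 3.16 in the Apc tumour and 3.13 in the Pik3ca tumour, against 3.19 in the control. All 5 values fell within 0.09 of each other, and 0.0411% of the 14584 genes well above background on all arrays had a smaller span. The 2 other probes of Gsk3b went different ways. Probe A_51_P514412 had levels of −0.27, −0.62, −0.68 and −0.33 in the same tumours, against −0.85 in the control, a difference of 0.38 ± 0.26. Probe A_66_P104190 had levels of −1.24 and −1.02 in the shCdh1 tumours, −1.09 in the Apc tumour and −1.52 in the Pik3ca tumour, against −0.17 in the control. On this probe all 4 tumours lay clearly below the control, by −1.05 ± 0.27, with an unadjusted p of 0.0119 and an adjusted p of 0.262 by limma over all probes tested. The difference ranged from −1.12 to −0.95 when each tumour array was left out in turn. Of all probes tested, 6.19% were lower at an unadjusted p under 0.05 and 6.40% were at least 2-fold lower. The 3 probes thus gave 3 different pictures of the same gene, 1 flat, 1 higher and 1 lower, and none passed.

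Csnk1a1 encodes CK1 alpha, the kinase that phosphorylates beta-catenin first and so primes it for GSK3. Its brightest probe, A_51_P453856, had levels of 4.36 and 3.94 in the shCdh1 tumours, 4.16 in the Apc tumour and 4.26 in the Pik3ca tumour, against 3.88 in the control. The tumours lay above the control, although shCdh1 #2 did so by little, and the difference was 0.30 ± 0.25 (limma, adjusted p = 0.651). The direction depended on the probe. On A_51_P451837 the levels were 3.42, 3.39, 3.38 and 3.34 in the same tumours, against 3.63 in the control, with all tumours below it by −0.24 ± 0.20. On A_52_P339722 and A_66_P120273 the groups overlapped, with differences of 0.01 ± 0.25 and −0.03 ± 0.21.

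Ctnnb1 encodes beta-catenin, the substrate of the complex, whose protein amount is set mainly by degradation and was not measured here. Its brightest probe, A_52_P424585, had levels of 3.45 and 3.83 in the shCdh1 tumours, 3.73 in the Apc tumour and 3.77 in the Pik3ca tumour, against 3.58 in the control. The control stood between the 2 shCdh1 tumours. The difference was 0.12 ± 0.24 (limma, adjusted p = 0.866). On the dimmer probe, A_66_P122220, the tumours had levels of −0.81, −0.85, −0.97 and −0.81 in the same order, against −1.06 in the control, a difference of 0.19 ± 0.21. All 4 tumours lay above the control on that probe, and the Apc tumour was nearest to it.

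Btrc encodes beta-TrCP, the substrate-binding part of the ubiquitin ligase. Its brightest probe, A_52_P98674, had levels of −3.21 and −3.20 in the shCdh1 tumours, −3.23 in the Apc tumour and −3.34 in the Pik3ca tumour, against −3.05 in the control. The tumours lay below the control by −0.19 ± 0.20 (limma, adjusted p = 0.724). The second probe, A_66_P102607, was well above background in the control alone, at −4.85. It was not well above background in the tumours, whose measured levels were −8.00, −8.03, −6.46 and −8.14 in the same order. Against the lowest signal that counts as well above background on those arrays, this probe was at least 2.20-fold lower in the tumours, and its adjusted p by limma over all probes was 0.259. It was the 1 member probe of 17 that was not well above background on every array. The fitted difference of −2.81 on this probe was −0.50 with normexp background correction and quantile normalization together, and −3.05 with quantile normalization alone. Fbxw11, which encodes a close relative of beta-TrCP and was singled out after its values were seen, had levels of 4.01 and 4.43 in the shCdh1 tumours, 4.22 in the Apc tumour and 4.58 in the Pik3ca tumour, against 3.95 in the control. Its difference of 0.36 ± 0.29 did not pass either (limma, adjusted p = 0.644).

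**Figure D2:**
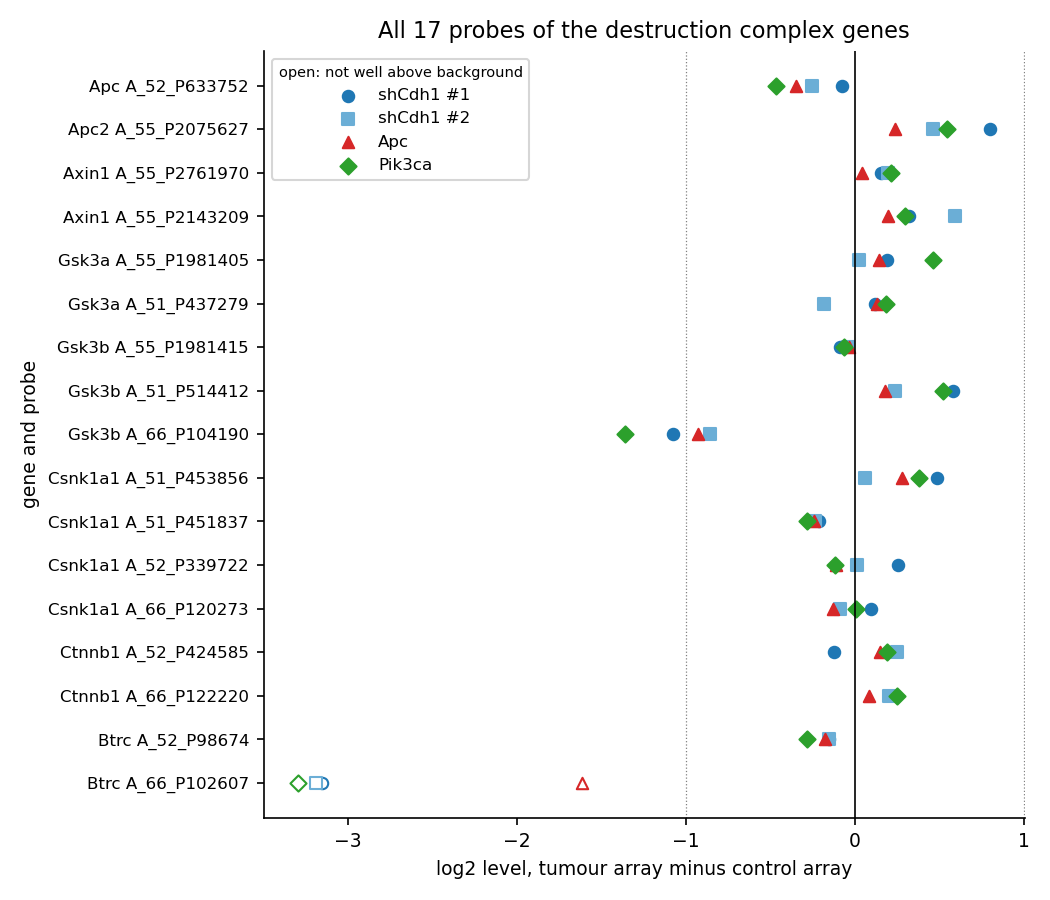
Log2 level of each tumour array minus the control array (horizontal axis) for each of the 17 member probes (vertical axis), 1 point per tumour array; open points were not well above background and dotted lines mark 2-fold. 15 probes have a mean difference under 2-fold, and the 2 beyond it are probe A_66_P104190 of Gsk3b and probe A_66_P102607 of Btrc.

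Counted by position alone, 4 of 8 members had all 4 tumours above the control on their brightest probe, where 30.2% of all genes tested did, and 3 of 8 had all 4 below it, where 24.4% did. Over all 17 probes the counts were 7 above, 6 below and 4 with overlap, beside 30.7% above and 23.9% below among all probes tested. For 2 of the 6 genes with several probes, Gsk3b and Csnk1a1, some probes had all tumours above the control and others had all tumours below it.

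The members also varied little among themselves across arrays. The span, the highest minus the lowest level over the 5 arrays, was 0.09 for Gsk3b, 0.22 for Axin1, 0.28 for Btrc, 0.37 for Ctnnb1, 0.46 for Gsk3a, 0.47 for Apc, 0.48 for Csnk1a1 and 0.80 for Apc2. For 7 of 8 it was below the median of 0.70 over the 14584 genes well above background on all arrays. 29.3% of those genes spanned at least 1 log2 unit and 0 of 8 members did on the brightest probe. Of the dimmer probes, A_66_P104190 of Gsk3b spanned 1.36 and A_66_P102607 of Btrc spanned 3.29, and with the mean of its probes Btrc spanned 1.79. Genes of like profile were sought only for members whose brightest probe spanned at least 1 log2 unit, which left none.

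**Figure D3:**
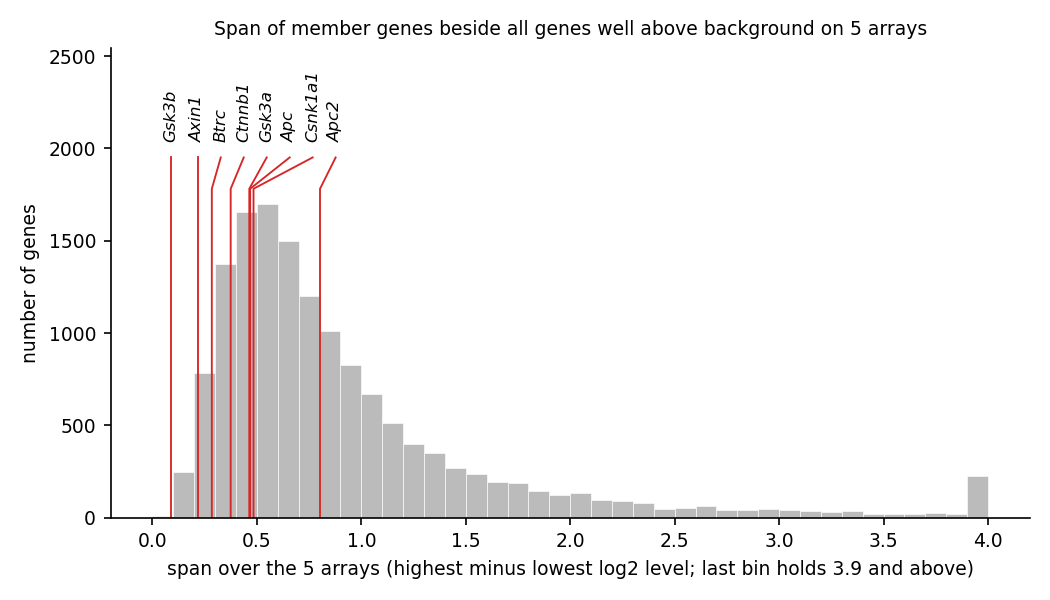
Number of genes (vertical axis) by the span of their log2 level over the 5 arrays (horizontal axis) for 14584 genes well above background on all of them, with the 8 members marked by red lines. 7 members lie left of the median of 0.70, and Apc2 lies right of it at 0.80.

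The Apc tumour carries a lesion in a member of the complex, and it was set against the control and against the other tumours. The Apc and control arrays lay on different slides, so genotype and slide cannot be told apart between them. Against the control, the differences lay between −0.35 ± 0.33 for Apc and 0.28 ± 0.40 for Csnk1a1, and 0 of 8 members passed, as did 0 of 17583 genes (0%, limma). At an unadjusted p under 0.05 there were 1586 genes (9.02%) and 0 members. Against the mean of the shCdh1 and Pik3ca groups, they lay between −0.35 ± 0.30 for Apc2 and 0.04 ± 0.26 for Btrc, again with 0 members and 0 genes passing (limma), beside 1060 genes (6.03%) at an unadjusted p under 0.05. The brightest probe of Ctnnb1 differed by 0.03 ± 0.31 between the Apc tumour and the other tumours. On the slide that held both, the Apc array minus the Pik3ca array was −0.32 for Gsk3a, −0.31 for Apc2, −0.17 for Axin1, −0.10 for Csnk1a1, −0.04 for Ctnnb1, 0.03 for Gsk3b, 0.11 for Btrc and 0.12 for Apc. Without the Pik3ca array, the Apc array minus the mean of the shCdh1 pair lay between −0.40 for Apc2 and 0.09 for Ctnnb1. It had the opposite sign for Gsk3a (0.04), Csnk1a1 (0.0058) and Btrc (−0.021). These fits have 1 residual degree of freedom, from the shCdh1 pair, so single arrays are assumed to vary like that pair and intervals are wide: the 95% intervals against the control reached from −1.39 to 1.54, and 0 of 8 lay within 2-fold. For each member the interval thus reached past 2-fold in at least 1 direction. On the brightest probes the differences themselves were under 2-fold for 8 of 8 members, where 17.8% of all genes differed by 2-fold or more.

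In the shCdh1 tumours the question concerns E-cadherin, the product of Cdh1, which binds beta-catenin at cell junctions. Both shCdh1 arrays lay on 1 slide and the Apc and Pik3ca arrays on the other, so genotype and slide cannot be told apart in this comparison. Against the mean of the Apc and Pik3ca tumours the members differed by −0.20 ± 0.23 for Gsk3a to 0.25 ± 0.23 for Apc, with −0.11 ± 0.27 for Ctnnb1. 0 of 8 passed, as did 0 of 17583 genes (limma), beside 1060 genes (6.03%) at an unadjusted p under 0.05. Against the control the largest member difference was 0.63 ± 0.32 for Apc2, where 0 members and 0 genes passed and 1712 genes (9.74%) had an unadjusted p under 0.05. In the Pik3ca tumour the member differences from the control ran from −0.47 ± 0.33 for Apc to 0.54 ± 0.37 for Apc2, with 0 members and 0 genes passing beside 2030 genes (11.5%) at an unadjusted p under 0.05. In each of the 3 comparisons of a genotype with the control, 5 members were higher and 3 lower, and these comparisons share the control array. The Pik3ca and control arrays lay on different slides, so genotype and slide cannot be told apart between them either.

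Other genes of the pathway were followed by list, and these lists overlap. Axin2, Lgr5, Rnf43, Znrf3, Tcf7 and Lef1 each count among the Wnt feedback and target genes and in another list as well. Of 27 other components of the complex and of its ubiquitin ligase, 0 passed (limma, tumours against the control), with a median difference of 0.22; 13 had all tumours above the control and 4 all below, beside 30.2% and 24.4% of all genes tested. Csnk1e and Csnk1d, which encode further CK1 kinases, differed by 0.64 ± 0.26 and −0.63 ± 0.25. For Csnk1d the mean of all its probes had the opposite sign, 0.21. Csnk2a1, a subunit of the kinase CK2, differed by 0.53 ± 0.30, and Tnks2, a tankyrase that marks AXIN for degradation, by 0.51 ± 0.23. Of 22 Wnt receptors and cytoplasmic signal transducers 0 passed, with a median of 0.29. Dvl2 encodes a Dishevelled protein, which carries the receptor signal to the complex. It had levels of 1.24 and 1.40 in the shCdh1 tumours, 1.099 in the Apc tumour and 1.38 in the Pik3ca tumour, against 0.33 in the control, so that all tumours were above it by 0.95 ± 0.23 (limma, adjusted p = 0.261). Frat2, which encodes a GSK3-binding protein, differed by 0.94 ± 0.43, and the receptor genes Fzd2 and Fzd3 by 0.93 ± 0.68 and −1.43 ± 0.73 (−1.08 for Fzd3 without Pik3ca).

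Of 14 nuclear partners of beta-catenin, 13 were tested (not Pygo1) and 0 passed, with a median of 0.12. Tcf7 encodes a TCF transcription factor. It had levels of −1.29 and −1.29 in the shCdh1 tumours, −0.45 in the Apc tumour and −0.85 in the Pik3ca tumour, against −2.31 in the control. All tumours were above the control by 1.34 ± 0.40 (limma, adjusted p = 0.303). Tcf7l1 differed by 0.56 ± 0.61 (0.30 without Apc), and the co-repressor genes Tle4 and Tle1 by 0.44 ± 0.36 (0.29 without Pik3ca) and 0.34 ± 0.54 (0.058 without Apc). Of 7 junction partners 0 passed, with a median of 0.16. Cdh2, which encodes N-cadherin, had levels of −3.74 and −1.38 in the shCdh1 tumours, −1.24 in the Apc tumour and −2.68 in the Pik3ca tumour, against −4.41 in the control, a difference of 2.15 ± 1.05 that did not pass. Cdh1, given above, differed by −2.04 ± 2.21 over all tumours, Ctnna2 by 0.40 ± 0.38 (0.26 without shCdh1 #2) and Cdh3 by 0.31 ± 1.25 (0.66 without Pik3ca and −0.18 without shCdh1 #2).

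Many of the Wnt feedback and target genes stood apart from the members in the Apc tumour, although none passed a test. Others did not. The Apc tumour differed from the other tumours by 0.08 for Lgr5, −0.14 for Myc, 0.12 for Ccnd1 and −0.22 for Nkd2. Of 18 listed, 17 were tested (not Dkk1). Between all tumours and the control 0 passed (limma), 7 had all tumours above the control and 1 all below, beside 30.2% and 24.4% of all genes tested, and the median difference was 0.39. 7 of the 17 were at least 2-fold higher on the Apc array than on each of the other 4 arrays (Axin2, Nkd1, Znrf3, Sp5, Apcdd1, Wif1 and Lef1), where 2.68% of all genes tested were. The same count among the members was 0 of 8. The median difference between the Apc tumour and the other tumours was 1.24 over the 17 genes, −0.04 over the members and −0.06 over all genes tested. Against the shCdh1 pair alone, without the Pik3ca array, the median was 1.48 over the 17 genes and −0.0078 over the members. Of these 7, Nkd1 and Apcdd1 were named by rule, and the others were singled out after their values were seen. The list of 17 was itself chosen with earlier results of these data known. Its count beside that of all genes is therefore a description and not independent support.

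Axin2 encodes the feedback scaffold of the complex, made in answer to Wnt signalling. It had levels of −2.43 and −1.18 in the shCdh1 tumours, 1.13 in the Apc tumour and −0.83 in the Pik3ca tumour, against −1.19 in the control. The Apc tumour alone lay above the 75th percentile. It was above the other tumours by 2.44 ± 0.66 (limma, adjusted p = 0.759), and above the Pik3ca array of the same slide by 1.96. Nkd1, an inhibitor that binds Dishevelled, had levels of −5.56 and 1.13 in the shCdh1 tumours, 3.60 in the Apc tumour and −3.22 in the Pik3ca tumour, against −1.80 in the control, and the 2 shCdh1 tumours lay far apart. Its difference over all tumours was 0.79 ± 3.61, and 1.53 without Pik3ca. Apcdd1, an inhibitor at the cell surface, had levels of −5.62, −2.68, 0.29 and −3.04 in the same tumours, against −5.98 in the control. On this probe all tumours were above the control, the Apc tumour most, with a difference of 3.22 ± 2.11 over all tumours. Both shCdh1 #1 and the control lay near the lowest signal well above background on their arrays, −5.89 and −6.07. On probe A_66_P102592 neither was well above background, and on A_55_P2004248 the Apc array alone was. Sp5, whose upstream window is printed above, had levels of −0.12, 0.83, 2.98 and 0.29 in the same tumours, against 1.68 in the control. The Apc tumour was above the control and the other tumours below it. Its difference over all tumours was −0.68 ± 1.22, and −0.45 without Pik3ca. Znrf3, a ligase that removes Wnt receptors, was above the other tumours by 1.24 ± 0.27 in the Apc tumour (limma, adjusted p = 0.64).

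4 genes of the pathway lists, singled out after their values were seen, were well above background on the Apc array alone. The share of all genes for which this holds was not computed, so the count is a description only. The Apc array also had the most spots well above background, 38710 against 36661 to 37150 on the others. Lef1, which encodes a nuclear partner of beta-catenin, stood at −0.45 there and was at least 44.1-fold higher than in the other tumours and at least 49.2-fold higher than in the control. Wif1, a secreted Wnt inhibitor, stood at −1.05 and was at least 29.0-fold and 32.3-fold higher on the same scales. Fzd10, a Wnt receptor gene, stood at −0.41 and was at least 45.3-fold and 50.4-fold higher. Each of these had an adjusted p of 0.223 by limma against the other tumours. Lgr6, an R-spondin receptor gene, was barely above background there, at −5.72, and was at least 1.14-fold higher than in the other tumours and at least 1.27-fold higher than in the control (limma, adjusted p = 0.669 against the other tumours). Sox9, a transcription factor gene known as a Wnt target in the intestine, was at 0.40 and 0.41 in the shCdh1 tumours, 1.89 in the Apc tumour and 0.55 in the Pik3ca tumour, against 1.66 in the control. Here the Apc tumour stood near the control and the other tumours below both, with a difference of −0.85 ± 0.66 over all tumours. The fibroblast marker Dcn was well above background on the Apc array alone as well, at −3.25, and its part in these differences was not tested.

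**Figure D4:**
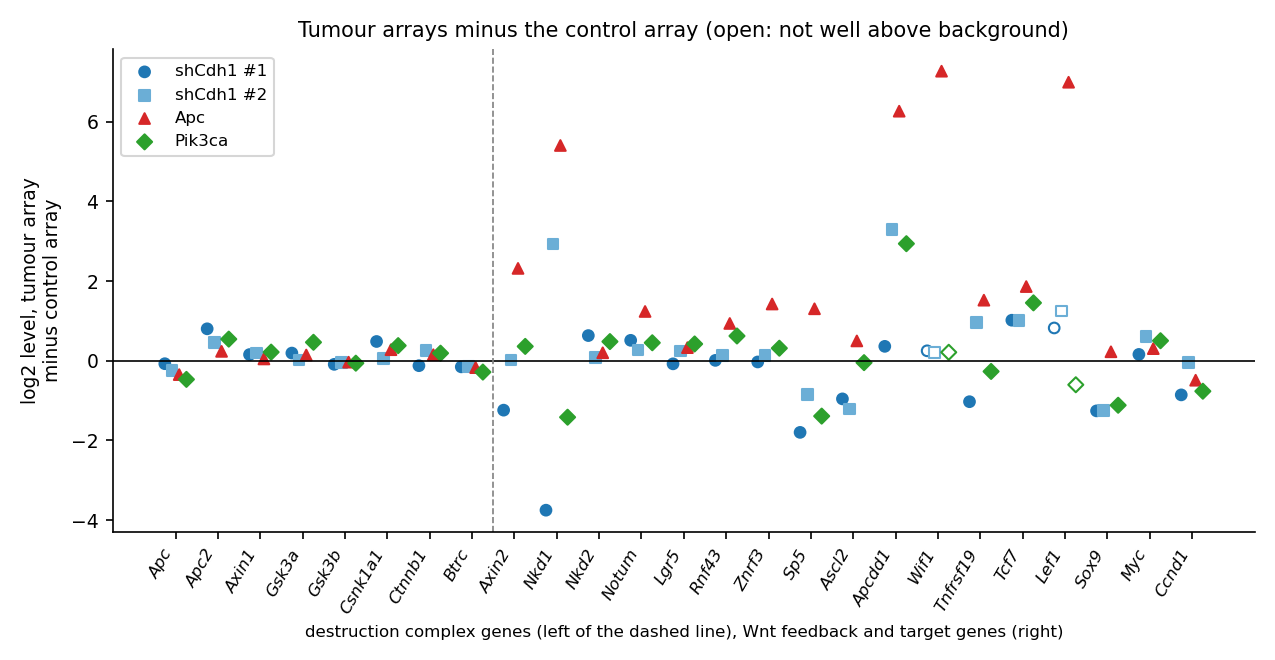
Log2 level of each tumour array minus the control array (vertical axis) for the 8 members and for 17 Wnt feedback and target genes (horizontal axis), 1 point per tumour array, open where not well above background. On their brightest probes the members stay within 0.80 of the control on every array. 7 of the 17 feedback genes are highest by at least 2-fold in the Apc tumour.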

How the data were processed

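Total RNA of 5 samples was labelled with Cy3 and hybridised to 1 array each, and the images were read with Agilent Feature Extraction 11.0.1.1, per the submitters' processing notes. The deposited scanner files hold, per the file headers, a processed signal per spot, an intensity that was background-subtracted by that software and not normalized between arrays. They also hold median spot and local background intensities, per the file headers. The value table deposited by the authors holds log2 values. Over 53335 probes, its differences between each tumour array and the control followed those of the scanner values (slope 1, correlation 1), so scale and direction are known and the baseline of each probe is unknown. Its column medians were 0.07 and 0.03 for shCdh1 #1 and #2, −0.08 for Apc, 0.02 for Pik3ca and −0.06 for the control. It held 0 columns that were left unused.

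From each log2 processed signal the array's 75th percentile over non-control spots was subtracted. Control spots and spots marked as outliers (78 to 114 per array) were left out, 0 spots were saturated, and repeated spots of a probe were averaged. Of 56605 probes, 32 lacked a usable value on at least 1 array and were left out. Of the rest, 34549 matched 1 gene symbol of the RefSeq table for GRCm38.p6, used for names and promoter windows only, and 22024 did not. Each gene took its values from its brightest probe by mean signal and was tested if any of its probes was well above background on at least 1 array. The 75th percentile was 24.0 to 27.9 times the median local background, and the number of arrays limits the precision.

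Groups came from the sample descriptions. Two-sided tests were made with lmFit and eBayes of limma 3.58.1, run in R 4.3.3. P-values were adjusted after Benjamini and Hochberg across all tested genes, or across all tested probes where a single probe is given, at a threshold of 0.05. The fits were tested on simulated data. The fit of all tumours against the control has 3 residual degrees of freedom and assumes that the lone control varies like the tumours. Nothing in the labels says whether the shCdh1 pair came from separate cultures or animals, so p-values measure only the spread between these samples, which may be technical. Errors after ± are standard errors of these fits unless marked SD. A probe not well above background on all arrays of one side is given as a lower bound on the fold, written "at least", against the higher of its own signal and the lowest signal well above background on each array.

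Named genes were the 8 members with every probe, the targeted genes, and up to 4 genes per list with the largest difference between tumours and control among those above background on each of the 5 arrays. The members and lists were chosen with earlier results of these data known. Alternatives covered normexp background correction with an offset of 50 followed by quantile normalization (on median spot signals, since mean spot signals are not among the columns used), quantile normalization alone, the authors' table, the filter on dim genes, the choice of probe, a floor on dim signals, slide as a block and leaving out each tumour array. The slide of Apc and Pik3ca held no control. With slide as a block, the difference is thus the shCdh1 mean minus the control. Probe positions in the genome were not analysed here.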

Additional observations from a re-analysis of the deposited data

Results flagged for a closer look

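Among the 4 tumour arrays, each of the 17 member probes was screened for a single array standing away from the other 3, by the gap to its nearest neighbour divided by the whole range. 3 probes passed Dixon's 95% critical value for 4 values, and chance alone gives about 1 in 20 groups. On probe A_51_P437279 of Gsk3a the shCdh1 #2 array stood lowest, at −2.09, with a ratio of 0.836. On probe A_52_P98674 of Btrc the Pik3ca array stood lowest, at −3.34, with a ratio of 0.831. On probe A_66_P102607 of Btrc the Apc array stood highest, at −6.46, with a ratio of 0.915, and no tumour array was well above background there.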

How the results depend on the processing

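0 of 8 members passed under any of the 324 combinations of member or member probe and setting that were run, the lowest adjusted p by limma being 0.0937, and 292 of the 324 kept their direction. The count of 21 genes passing between all tumours and the control was 39 with normexp and quantile normalization, 7 when every array had to detect the gene, 49 with a floor under dim signals and 0 with slide as a block. Leaving out 1 tumour array gave 0 to 19 genes, with 0 without shCdh1 #1, shCdh1 #2 or Pik3ca. Fitted probe by probe, alternatives added after seeing the data gave 59 probes with normexp and quantile normalization, 37 with quantile normalization, 60 with a floor, 0 with the slide block and 0 to 24 without 1 array. No single-genotype comparison had a passing gene under any setting run. Nor did the comparison of all tumours with the slide block or without shCdh1 #1, shCdh1 #2 or Pik3ca. A member could not stand out by not passing there, so those combinations among the 324 are no support for steady levels. Leaving out a shCdh1 replicate leaves the group fits with no residual degrees of freedom, so they were not run. No paired analysis was possible because only the shCdh1 group has more than 1 array.

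For the members, values whose direction changed were at most 0.38 in size, which is under 2-fold. Some were larger than the main difference that they reversed. The normexp setting below includes quantile normalization. Between tumours and control, Gsk3b was 0.38 on A_51_P514412, and Csnk1a1 was −0.24 on A_51_P451837 and −0.029 on A_66_P120273. Fitted alone, A_51_P437279 of Gsk3a gave −0.031 with the slide block and −0.040 with normexp. A_52_P339722 of Csnk1a1 gave −0.0125 with normexp, −0.019 with quantile normalization, −0.023 from the authors' table, and −0.071 (without shCdh1 #1) to 0.053 without 1 array. A_66_P120273 gave 0.0036 with the slide block and −0.069 to 0.0041 (without Apc) without 1 array. Between the Apc tumour and the control, Axin1 was −0.0008 from the authors' table, Gsk3b was 0.052 with quantile normalization and 0.18 on A_51_P514412, and Csnk1a1 was −0.051 as the mean of its probes and −0.24, −0.11 and −0.13 on its other probes. Between the Apc tumour and the other tumours, the normexp setting and quantile normalization alone gave 0.062 and 0.0475 for Gsk3a, 0.26 and 0.18 for Csnk1a1, and −0.078 and −0.049 for Btrc. The same difference was 0.054 for Gsk3a on A_51_P437279, −0.0098 for Gsk3b as the mean of its probes and −0.29 on A_51_P514412, 0.011 for Csnk1a1 on A_51_P451837, and −0.063 for Ctnnb1 as the mean of its probes and −0.15 on A_66_P122220. Within the slide of Apc and Pik3ca it was 0.12 for Apc and −0.038 for Ctnnb1. Of other genes, between tumours and control, Csnk1d was 0.21 as the mean of its probes. With the slide block Tle1 was −0.031, Nkd1 −0.41 and Axin2 −0.61. Without 1 array, Nkd1 ran from −0.75 (without Apc) to 2.31, Axin2 from −0.29 (without Apc) to 0.90, and Cdh3 from −0.18 (without shCdh1 #2) to 0.77, with −0.0068 without Apc. The values with the slide block are by design the shCdh1 mean minus the control, and the Apc and Pik3ca arrays add nothing to them. The cause of the other changes was not tested. The largest member span was 1.79, for Btrc, with the mean of all probes, against 0.80 on the brightest probe. Trp53 fell by 6.07 in the tumours (adjusted p = 0.0344 by limma) and did not pass with the slide block (−5.93, adjusted p = 0.198 by limma). Nor did it pass without shCdh1 #1 (−6.12), shCdh1 #2 (−6.11) or Pik3ca (−6.19). There the adjusted p by limma was 0.123 to 0.147 and the difference was as large as before. Trp53 passed without Apc (−5.86, adjusted p = 0.0376 by limma). The cause of these changes in the adjusted p was not tested. The 7 feedback genes highest in the Apc tumour numbered 7 under all 5 alternatives of scaling and probe. Signal over background limits the second Btrc probe, for which the tumours have only a bound.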
